A study of Bos taurus with 12 samples.

Results

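The subject is SCARA5, a scavenger receptor that takes up ferritin, together with 5 other scavenger receptor genes of classes A and B (SCARA3, MSR1, CD36, SCARB1 and SCARB2), the scavenger receptor STAB1, and 3 genes of iron uptake, storage and export (TFRC, FTH1 and SLC40A1). The genes were found by their symbols in the annotation of an oligonucleotide array of bovine transcripts. All 10 were present, as 14 transcripts out of 26323 transcripts measured. SCARA5 was chosen from the Old against Young contrast of these same arrays, in which the study's ranking method called it, and the other 9 were chosen around it. The Old against Young values of the 10 genes are therefore a description and carry no test, and SCARA5 carries no test in any contrast. Tests of Old against Young are given only for other genes, from lists that were also drawn up with earlier results of these data known.

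Endometrium from the uterine horn on the side of the corpus luteum was sampled at Day 15 after estrus, with 1 array for each of 12 cows. The 4 Young females (YF, animals 1069, 1070, 1072 and 1127) were 4 to 5 years old and had calved once. The 4 Old females (OF, animals 0233, 0234, 0245 and 2258) were 13 to 14 years old and had never calved, so age and parity cannot be told apart. OF and YF were Holstein clones made by somatic cell nuclear transfer from a single donor cow, which makes this a comparison of animals of 1 genotype. The 3 Contemporary cows (1068, 1128 and 1129) are named as such in the labels, which give neither their age nor their parity nor whether they were clones. Another Contemporary cow, 1111, was set aside by the submitters for a divergent phenotype. Its values are given but enter no group mean unless stated. They do enter the spreads, marker scores and correlations over the 12 arrays.

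Scavenger receptors are membrane proteins that bind modified lipoproteins, microbial surfaces, cell debris and other polyanions, and deliver them to the endosome. Class A receptors carry a collagen-like stem outside the cell, class B receptors cross the membrane at both ends and move lipids, and stabilins are large receptors of sinusoidal endothelium and of tissue macrophages. Iron enters most cells as transferrin through the transferrin receptor, or as ferritin through receptors such as SCARA5, is stored in the ferritin shell and leaves through ferroportin. In the endometrium, SCARA5 is known as a gene of stromal cells whose level changes through the cycle.

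The 14 transcripts were read by 26 different probe sequences, each of 60 bases. SCARA5 had 2 of them, which overlapped by 48 bases and were each printed on the array under 2 probe names. The stretch below is the end of the SCARA5 probe that lies farther along the transcript, shown because it holds AATAAA, in capitals, the hexamer of the polyadenylation signal.
SCARA5, last 30 bases of the probe: gaccttttgtaagaatttcAATAAAgctga
Because of their overlap the SCARA5 probes do not measure the gene at separate places. AATAAA was searched on the printed strand only. It was found in this 1 of the 26 sequences and in 7.97% of the 50922 different probe sequences of the array. One MSR1 probe is shown whole because it reads the collagen-like stem that defines class A receptors. The capitals mark 6 codons GGN, for glycine, each starting 9 bases after the one before.
MSR1, probe of transcript ENSBTAT00000063949: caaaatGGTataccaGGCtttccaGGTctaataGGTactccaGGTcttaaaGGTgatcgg
A row of 6 or more such codons was held by 7 probe sequences of the array, 0.0137% of them. The TFRC probes are shown because their results differed, and the SCARB1 probe because both SCARB1 transcripts of the array were read by the same sequences; none of these has a part in capitals.
TFRC, first 30 bases of the brighter probe: ctaaaacatcagggtagtgtggtttctaga
TFRC, first 30 bases of the dimmer probe: ttttattaagattcaggtcaaaggcagttc
SCARB1, first 30 bases of the brighter probe: ctgggacaagcctctgtctcttttctactg

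Values are log2 signal relative to the 75th percentile of the same array, so 0 is the level that 75% of the spots did not exceed. Levels of different genes come from different probes and are not compared. Between 71.6% and 74.9% of spots were well above background on an array, and no spot was saturated. Epithelial markers were well above background on every array for 7 of 7 on the array and stromal markers for 9 of 9, and smooth muscle markers for 7 of 7 as well. Animals were spread over 2 slides: slide 1 held YF 1070 and 1072, OF 0245 and cow 1111, and slide 2 held the others, including the 3 Contemporary cows that were compared.

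SCARA5 (ENSBTAT00000026158, chromosome 8, 10662268 to 10796378 in UMD3.1) was well above background and above the 75th percentile on all 12 arrays. In YF its level was 4.79 in animal 1069, 4.09 in 1070, 4.31 in 1072 and 4.08 in 1127. In OF it was 3.67 in 0233, 4.20 in 0234, 4.00 in 0245 and 2.09 in 2258. In Contemporary cows it was 4.33 in 1068, 4.35 in 1128 and 4.13 in 1129, and in cow 1111 it was 4.15. Of the 12 animals, 2258 alone lay below the rest by more than the spread among them, and OF and YF overlapped, since OF 0234 was above YF 1070 and 1127.

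The mean level of SCARA5 was 4.32 ± 0.33 over the 4 YF and 3.49 ± 0.96 over the 4 OF (SD), an OF minus YF log2 difference of -0.83 with a standard error of 0.51. In OF, 2258 was 1.58 below the next animal, which is 0.748 of the range of the group. Without 2258 the difference between OF and YF was -0.36. Within slide 1, where 1 OF stood against 2 YF, it was -0.20, and within slide 2, with 3 OF and 2 YF, it was -1.11. Contemporary cows were at 4.27 ± 0.12 (SD, n = 3), 0.05 below YF with a standard error of 0.18 (0.02 and 0.11 above YF without Contemporary 1129 and without YF 1069) and 0.78 above OF with a standard error of 0.48, or 0.31 above OF without 2258. FCROS, the ranking method that chose the gene, was rerun here. It gave an OF to YF ratio of 0.63 for SCARA5 and called SCARA5 and no other of the 10 genes between OF and YF. It called 4.94% of all transcripts in that contrast. The paper also measured SCARA5 by RT-qPCR, in these OF and YF and in further animals of both groups. It reported a significantly lower level in OF by that measure. The RT-qPCR values were not analysed here.

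The error between spots of 1 array was measured by the repeats, which leave out error from labelling, hybridisation and scaling. The same SCARA5 sequence printed under its other name gave values that differed by at most 0.18 on an array, and the standard deviation between such repeats was 0.06. Over animals the standard deviation was 0.66 for the 12 arrays, against a median of 0.33 over the same arrays for the 20082 transcripts tested in any contrast. For SCARA5 it was 0.27 over the 11 arrays without 2258, for which no median of all transcripts was computed. Both SCARA5 sequences gave the difference between OF and YF alike, at -0.84 and -0.81.

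**Figure D1:**
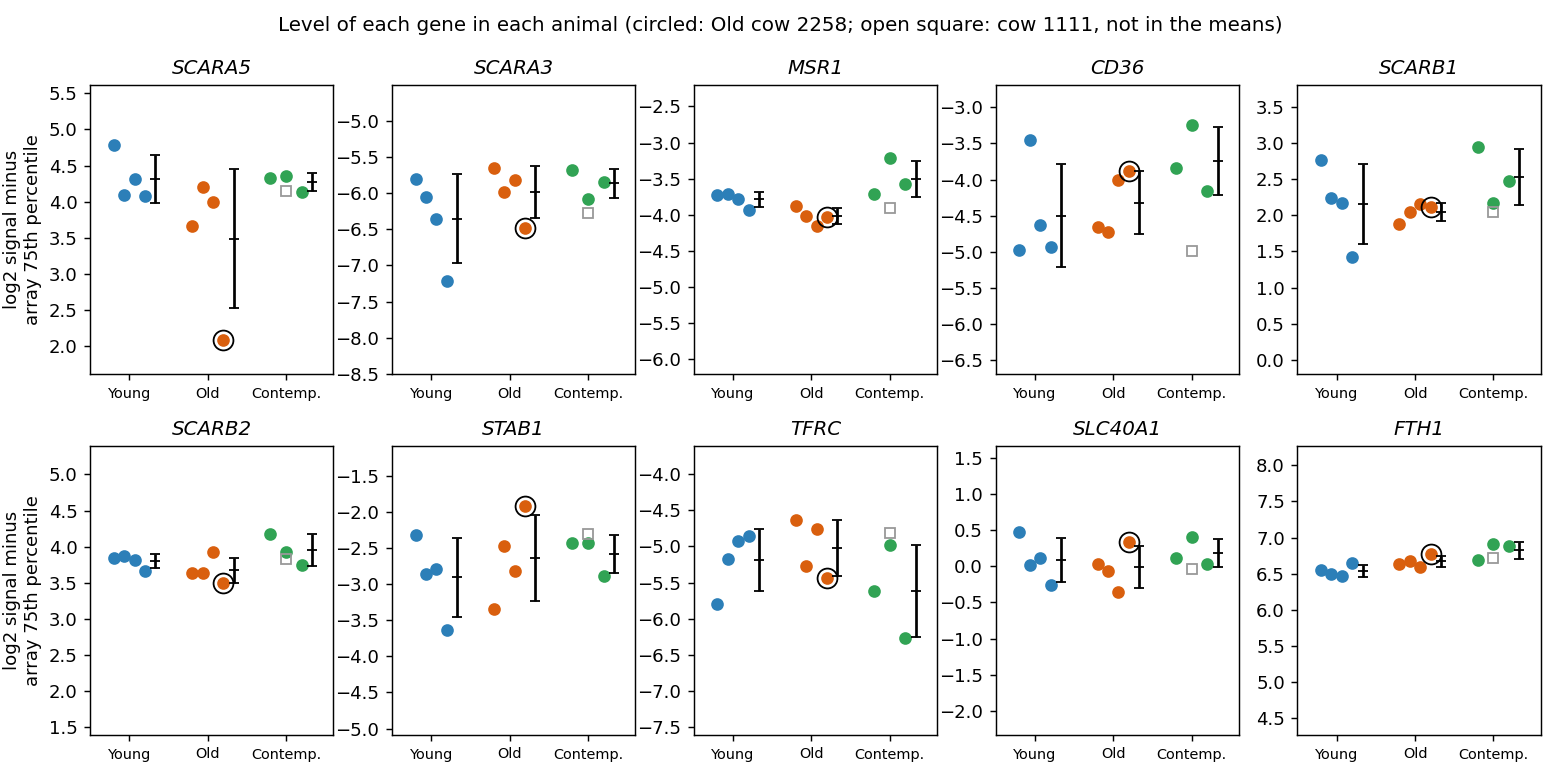
Level of each of the 10 genes in each animal, as log2 signal minus the 75th percentile of the array (all vertical axes span the same number of units), by group, with bars for the mean and SD beside the points. SCARA5 in OF 2258 (circled, 2.09) is the point farthest from its group, while FTH1 runs from 6.47 to 6.91 over all animals.

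Marker lists were read on the same arrays, each as the mean over its genes of the deviation from the gene's mean over the 12 arrays. OF 2258 had the highest smooth muscle score of the 12 animals, 4.18, and the lowest epithelial score, -1.93, and the lowest score for uterine gland products, -1.66. OF 0234 also had a high smooth muscle score, 2.51, with an epithelial score of -0.18 and SCARA5 at 4.20, within the range of YF. All other animals were between -1.46 and 0.17 for smooth muscle. The stromal score of 2258 was 0.17, within the range of the other OF and YF, which ran from -0.47 to 0.70. Of the other 11 animals, YF 1069 had the lowest epithelial score, -1.15, and the lowest gland product score, -0.83. Its SCARA5, 4.79, and its stromal score, 0.70, were the highest. OF 0233 had the lowest SCARA5 of these 11, 3.67, with a stromal score of -0.41. The lowest stromal score, -0.47, was that of OF 0245, with SCARA5 at 4.00. For the other lists the groups overlapped: endothelium ran from -0.77 to 0.09 in YF, -0.19 to 0.12 in OF and -0.21 to 0.74 in Contemporary cows, and erythrocyte markers from -0.47 to 0.13, -0.35 to 0.13 and -0.22 to 0.82 in the same order. The part of these cell types in the SCARA5 values was not tested, and in pieces of whole tissue fewer cells of a type and less RNA per cell cannot be told apart.

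**Figure D2:**
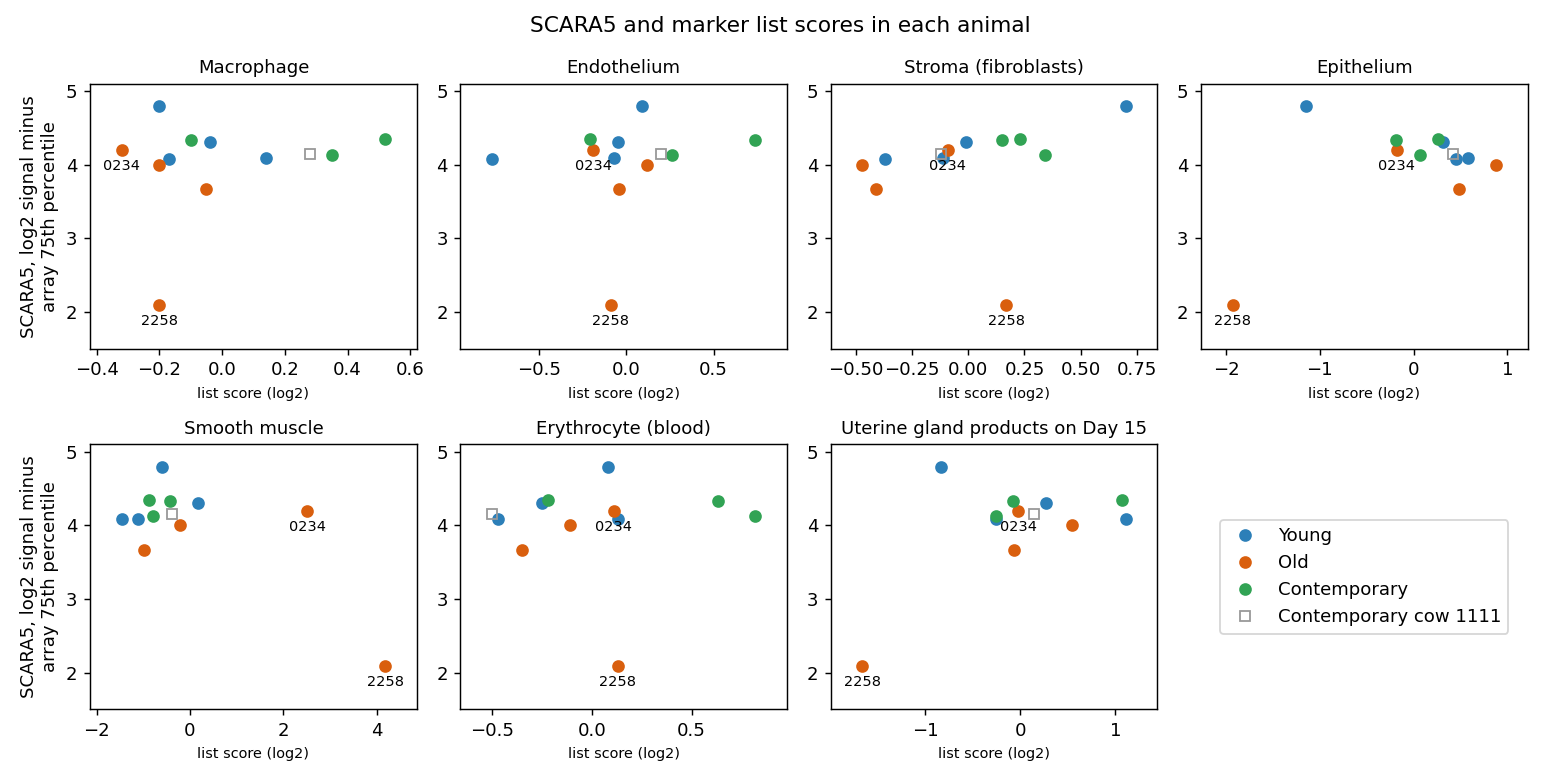
SCARA5 (vertical axes, log2 signal minus the 75th percentile of the array) against the score of each marker list (horizontal axes, mean log2 deviation) in the 12 animals. OF 2258, at a SCARA5 level of 2.09, lies apart for smooth muscle (4.18) and epithelium (-1.93) and among the others for stroma (0.17).

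SCARA3, a class A gene known for protection from oxidants, lies near SCARA5 on chromosome 8 (ENSBTAT00000010075, 10992201 to 11010083) but gave different values. It was dim but well above background on all arrays, at -5.80, -6.05, -6.36 and -7.21 in YF 1069, 1070, 1072 and 1127. In OF 0233, 0234, 0245 and 2258 it was -5.66, -5.99, -5.82 and -6.49, and in the Contemporary cows 1068, 1128 and 1129 it was -5.68, -6.08 and -5.84. All groups overlapped, and OF 2258 was the lowest OF for this gene too, though above YF 1127. OF exceeded YF by 0.36 with a standard error of 0.35, or by 0.08 without YF 1127. Contemporary cows exceeded YF by 0.48 (95% interval -0.28 to 1.24, adjusted p = 1 in limma) and OF by 0.12 (-0.43 to 0.67, adjusted p = 0.977). The first was 0.20 without YF 1127 and 0.08 with normexp, and the second -0.04 without OF 2258 and -0.14 with normexp. The standard deviation between repeats of a SCARA3 sequence was 0.22, nearer to the 0.43 between animals than for SCARA5.

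MSR1, the class A receptor of macrophages, had 3 transcripts on chromosome 27, of which ENSBTAT00000003751 (19976214 to 20056927) was the brightest. In YF 1069, 1070, 1072 and 1127 it was at -3.73, -3.71, -3.78 and -3.93. In OF 0233, 0234, 0245 and 2258 it was at -3.88, -4.01, -4.15 and -4.03, and in Contemporary cows 1068, 1128 and 1129 at -3.71, -3.22 and -3.58. Every Contemporary cow was above every OF, and OF 2258 was among the other OF, unlike for SCARA5. The Contemporary minus OF difference was 0.51 (limma standard error 0.18, 95% interval 0.10 to 0.92, unadjusted p = 0.0209 in a fit of all transcripts), and it did not pass adjustment (adjusted p = 0.912). Cow 1111, at -3.91, was below the Contemporary cows and above every OF but 0233. With normexp background correction the difference was 0.25. The other transcripts differed in the same direction by 0.40 and 0.22, each with overlapping groups (adjusted p = 0.923 and 0.977). Against YF the brightest transcript was 0.28 higher (-0.12 to 0.68, adjusted p = 1), or 0.14 without Contemporary 1128 and 0.18 with normexp. The other transcripts differed in sign there, at 0.09 for ENSBTAT00000003755 and -0.12 for ENSBTAT00000063949, with overlapping groups. Between OF and YF it was 0.23 lower in OF with a standard error of 0.07, and 0.08 lower with normexp. Of the macrophage markers, 8 of 11 on the array were well above background on all arrays, and ITGAM on none. The macrophage list scored -0.32 to -0.05 in OF, -0.20 to 0.14 in YF and -0.10 to 0.52 in Contemporary cows. Its part in the MSR1 values was not tested.

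CD36, the class B receptor that carries long-chain fatty acids and binds oxidised lipoproteins, was read by 2 transcripts on chromosome 4. ENSBTAT00000023750 (40581484 to 40643369) was at -4.98, -3.45, -4.63 and -4.93 in YF 1069, 1070, 1072 and 1127. In OF 0233, 0234, 0245 and 2258 it was at -4.66, -4.72, -4.01 and -3.88, and in Contemporary cows 1068, 1128 and 1129 at -3.84, -3.24 and -4.16. YF 1070 stood 1.18 above the other YF, at the level of the Contemporary cows, and cow 1111 was the lowest of all 12 at -4.99. The Contemporary minus YF difference was 0.75 (-0.19 to 1.70, adjusted p = 1), or 1.10 without YF 1070, 0.50 without Contemporary 1128, 0.44 with cow 1111 and 0.35 with normexp. Against OF it was 0.57 (-0.16 to 1.30, adjusted p = 0.912), or 0.32 without Contemporary 1128, 0.26 with cow 1111 and 0.22 with normexp. OF exceeded YF by 0.18 with a standard error of 0.42, or by 0.02 without YF 1069 and 0.53 without YF 1070. The other CD36 transcript was well above background in 2 OF, 1 YF and 1 Contemporary cow and was kept out of the fit; Contemporary cows differed from YF by 0.04 and from OF by 0.07 (exact two-sided permutation p = 0.971 and 0.857, smallest possible 0.0571).

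SCARB1, the receptor through which cells take cholesterol esters from high-density lipoprotein, was above the 75th percentile in every animal (ENSBTAT00000018959, chromosome 17, 53180929 to 53273723). Its level was 2.77, 2.24, 2.17 and 1.43 in YF 1069, 1070, 1072 and 1127, the widest range of the 3 groups. OF were close together, at 1.88, 2.05, 2.16 and 2.11 in 0233, 0234, 0245 and 2258, and Contemporary cows 1068, 1128 and 1129 were at 2.94, 2.17 and 2.48. Each Contemporary cow was above each OF, the closest being Contemporary 1128 at 2.17 and OF 0245 at 2.16, and cow 1111 at 2.04 was below 3 of the OF. The Contemporary minus OF difference was 0.48 (-0.02 to 0.97, unadjusted p = 0.0558, adjusted p = 0.912) and fell to 0.28 without Contemporary 1068. Against YF it was 0.38 (-0.39 to 1.14, adjusted p = 1), or 0.17 without Contemporary 1068, 0.14 without YF 1127 and 0.58 without YF 1069. OF were 0.10 below YF with a standard error of 0.28, and 0.10 above without YF 1069. The other SCARB1 transcript, read by the same sequences, gave 0.49 and 0.31 for the Contemporary contrasts and is no independent measure.

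SCARB2, a class B protein of the lysosomal membrane that carries glucocerebrosidase to the lysosome, varied little (ENSBTAT00000014549, chromosome 6, 92797820 to 92879565). It was at 3.85, 3.87, 3.81 and 3.66 in YF 1069, 1070, 1072 and 1127, at 3.64, 3.63, 3.92 and 3.50 in OF 0233, 0234, 0245 and 2258, and at 4.18, 3.93 and 3.75 in Contemporary 1068, 1128 and 1129. OF 2258 was the lowest animal here as for SCARA5, but 0.13 below the next OF rather than 1.58. Contemporary cows exceeded OF by 0.28 (-0.14 to 0.70, adjusted p = 0.912) and YF by 0.16 (-0.22 to 0.53, adjusted p = 1), and OF were 0.13 below YF with a standard error of 0.10. Without Contemporary 1068 the first was 0.17 and the second 0.04, and the second was 0.26 without Contemporary 1129. The OF minus YF difference was -0.07 without 2258, -0.21 without OF 0245 and 0.08 within slide 1.

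STAB1, the scavenger receptor of endothelium and macrophages, went the other way in 2258 (ENSBTAT00000019663, chromosome 22, 48884238 to 48909562). Its level was -2.32, -2.86, -2.80 and -3.64 in YF 1069, 1070, 1072 and 1127. OF 0233 was at -3.34, 0234 at -2.48, 0245 at -2.82 and 2258 at -1.92, the highest of all animals, and Contemporary 1068, 1128 and 1129 were at -2.43, -2.44 and -2.89. OF exceeded YF by 0.27 with a standard error of 0.40, or by 0.03 without 2258 and 0.02 without YF 1127. Contemporary cows exceeded YF by 0.32 (-0.40 to 1.04, adjusted p = 1), or by 0.07 without YF 1127 and 0.52 without YF 1069, and OF by 0.05 (-0.73 to 0.84, adjusted p = 0.994), where the value ran from -0.18 without OF 0233 to 0.29 without 2258. YF 1127, the lowest animal for STAB1, also had the lowest score over 10 endothelial markers, -0.77, while 2258 was at -0.09; their part was not tested.

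TFRC, the transferrin receptor, was the one gene of the 10 that was lower in Contemporary cows than in OF, and its probes disagreed about the size (ENSBTAT00000046421, chromosome 1, 71260068 to 71280648). It was at -5.79, -5.17, -4.92 and -4.85 in YF 1069, 1070, 1072 and 1127, at -4.63, -5.27, -4.76 and -5.43 in OF 0233, 0234, 0245 and 2258, and at -5.61, -4.98 and -6.26 in Contemporary 1068, 1128 and 1129. The groups overlapped, and Contemporary 1129 was the lowest animal. The Contemporary minus OF difference was -0.60 (-1.40 to 0.20, adjusted p = 0.912), which was -0.13 by the brighter of the probes shown above and -1.07 by the dimmer. It was -0.28 without Contemporary 1129, -0.92 without Contemporary 1128 and -0.26 with normexp. Against YF it was -0.44 (-1.24 to 0.37, adjusted p = 1), -0.14 by the brighter probe and -0.73 by the dimmer, and -0.11 without Contemporary 1129 and -0.75 without Contemporary 1128. OF exceeded YF by 0.16 with a standard error of 0.29, where the probes differed in sign (-0.02 and 0.34), and was at -0.04 without YF 1069.

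SLC40A1, which encodes ferroportin, the iron exporter, was read by 2 sequences of very different brightness (ENSBTAT00000048226, chromosome 2, 6716591 to 6740329). The brighter ran from 1.93 to 2.74 over the arrays and the dimmer from -2.71 to -1.71. Their mean, given here, lay near the 75th percentile but is the level of neither. It was at 0.48, 0.02, 0.12 and -0.26 in YF 1069, 1070, 1072 and 1127, at 0.03, -0.07, -0.36 and 0.34 in OF 0233, 0234, 0245 and 2258, and at 0.12, 0.40 and 0.03 in Contemporary 1068, 1128 and 1129. The groups overlapped throughout, and 2258 was the highest OF. OF were 0.11 below YF with a standard error of 0.21, and 0.02 above without YF 1069. Contemporary cows exceeded YF by 0.09 (-0.39 to 0.58, adjusted p = 1) and OF by 0.20 (-0.29 to 0.69, adjusted p = 0.956). The first was at -0.02 without YF 1127 and -0.01 without Contemporary 1128, and the second at 0.09 without Contemporary 1128 or OF 0245. By the brighter sequence the first was 0.19 and the second 0.35, and by the dimmer -0.01 and 0.05.

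FTH1, the heavy chain of ferritin with its ferroxidase activity, had the smallest spread of the 10 genes, a standard deviation of 0.14 over 12 arrays, and 4.88% of transcripts had a smaller one (ENSBTAT00000014853, chromosome 29, 41172509 to 41175112). YF 1069, 1070, 1072 and 1127 were at 6.55, 6.49, 6.47 and 6.65, OF 0233, 0234, 0245 and 2258 at 6.64, 6.68, 6.60 and 6.78, and Contemporary 1068, 1128 and 1129 at 6.69, 6.91 and 6.88. Each Contemporary cow was above each YF, and so was cow 1111 at 6.72. The difference was 0.29 (limma standard error 0.14, -0.05 to 0.62, unadjusted p = 0.0822, adjusted p = 1) and 0.23 within slide 2. The standard deviation between repeats of an FTH1 sequence on an array was 0.02, which does not cover differences in scaling between arrays. Contemporary cows exceeded OF by 0.16 (-0.19 to 0.50, adjusted p = 0.946), or 0.35 after quantile normalization. OF exceeded YF by 0.13 with a standard error of 0.06, and this changed sign, to -0.04, after quantile normalization. The erythrocyte score was 0.63 and 0.82 in Contemporary 1068 and 1129, above the 0.13 that no OF or YF exceeded, and -0.22 in 1128, which had the highest FTH1. Ferritin heavy chain genes have near-identical copies in mammalian genomes, which a 60-base probe may also bind.

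**Figure D3:**
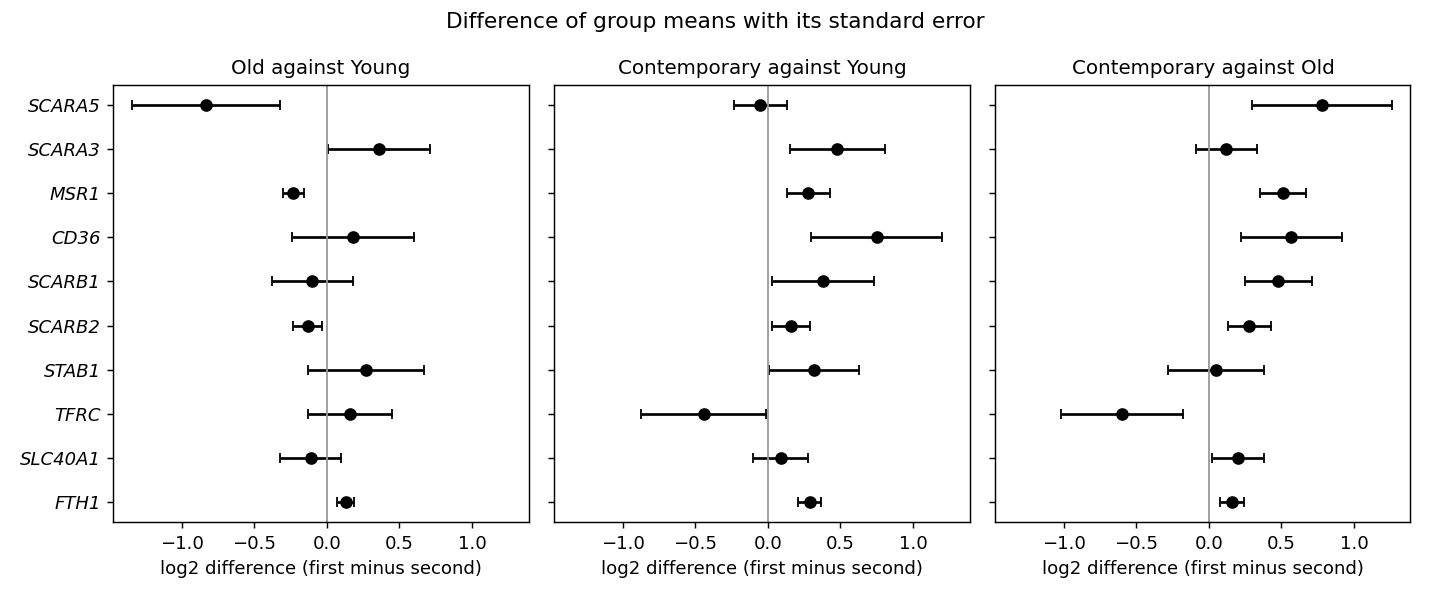
Log2 difference of group means, first group minus second, for the 10 genes in the 3 contrasts, with bars of 1 standard error of the difference from the spread in both groups. SCARA5 differed by -0.83 between OF and YF and by -0.05 between Contemporary cows and YF, and TFRC alone was below 0 for Contemporary cows against OF (-0.60).

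Counted over the 10 genes, each by its brightest transcript, 5 were higher and 5 lower in OF than in YF, with a median log2 difference of 0.01, equal to that of all transcripts tested. None of the 10 had separate groups between OF and YF, where 0.931% of transcripts were higher and 0.597% lower in every OF. In Contemporary cows 8 of 10 were higher than in YF (median 0.29, against -0.02 for all transcripts) and 9 of 10 higher than in OF (median 0.24, against -0.04). With an animal left out the sign turned for SCARA5 and SLC40A1 in the first count and for SCARA3 and STAB1 in the second, and for STAB1 also with slide as a block. Both contrasts use the same 3 Contemporary arrays, and each shares its other arrays with OF against YF. Both counts include SCARA5, which was chosen as lower in these same OF. Its difference against OF, 0.78, was the largest of the 10. Separate groups were found for FTH1 against YF, where 1.51% of transcripts were higher and 2.32% lower in every Contemporary cow. Against OF they were found for MSR1 and SCARB1, where 2.86% were higher and 2.93% lower.

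By limma at an adjusted p of 0.05, none of the 9 genes other than SCARA5 was called in either Contemporary contrast. This was the case for all transcripts, 0% of which were called in each of the 3 contrasts, so that the absence of calls is not particular to these genes. At an unadjusted p of 0.05 none of the 9 passed against YF, where 3.03% of transcripts did, and MSR1 alone passed against OF, where 4.57% did. In OF against YF 2.42% of all transcripts had an unadjusted p of 0.05. FCROS called CD36, as higher, in Contemporary cows against YF, with 4.23% of transcripts called, and none of the 9 against OF, with 5.4% called.

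**Figure D4:**
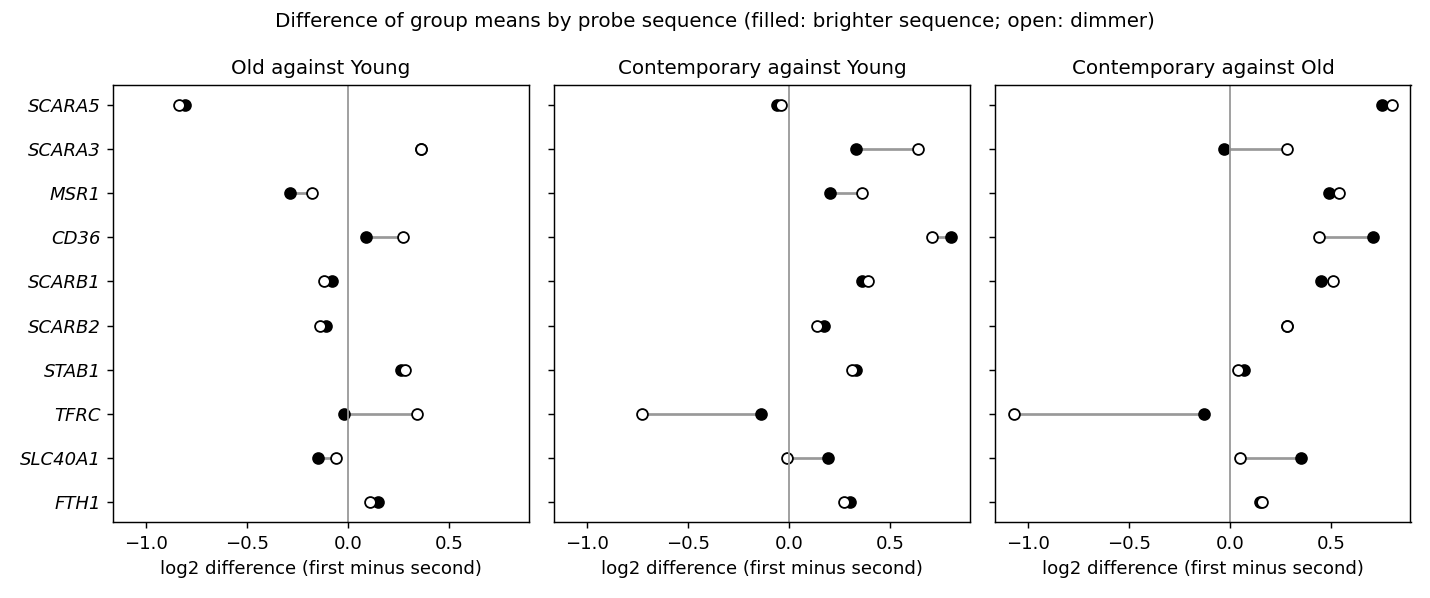
Log2 difference of group means for each of the 2 probe sequences of a gene (filled, brighter; open, dimmer; SCARA5's overlap by 48 bases) in the 3 contrasts. The sequences lie close together for SCARA5, STAB1 and FTH1 and apart for TFRC, at -0.13 and -1.07 for Contemporary cows against OF.

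Other scavenger receptor genes were read from a list of 25, of which 24 were on the array and 18 bright enough to test. In OF 13 of the 18 were lower and 5 higher than in YF, with a median log2 difference of -0.15 against 0.01 for all transcripts. In Contemporary cows 13 were higher and 5 lower than in OF, with a median of 0.20 against -0.04. These 2 contrasts share the OF arrays and are not separate evidence. Against YF, 11 were higher and 7 lower in Contemporary cows, with a median of 0.05 against -0.02. None was called by limma in any contrast. An unadjusted p of 0.05 was reached by no gene in OF against YF, by no gene in Contemporary cows against YF, and by 2, both higher, in Contemporary cows against OF, 11.1% of the 18 against 4.57% of all transcripts. These were COLEC12, a collectin with a collagen-like stem, and CXCL16, a membrane chemokine that binds oxidised lipoprotein.

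COLEC12 was at 1.21, 1.65 and 1.41 in Contemporary 1068, 1128 and 1129 and at 1.0, 0.45, 0.69 and 0.93 in OF 0233, 0234, 0245 and 2258, without overlap. The difference was 0.66 (limma standard error 0.20, unadjusted p = 0.0126, adjusted p = 0.912). CXCL16 was at 1.26, 1.22 and 1.15 in the same Contemporary cows and at 0.72, 0.45, 0.96 and 0.17 in the same OF, a difference of 0.64 (standard error 0.21, unadjusted p = 0.0195, adjusted p = 0.912). YF were between 0.41 and 1.41 for COLEC12 and between 0.75 and 1.15 for CXCL16. At 2 decimals Contemporary 1129 and YF 1070 had the same CXCL16 level, 1.15, while the unrounded values of the groups did not overlap, and the Contemporary minus YF difference was 0.25 (adjusted p = 1).

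Iron handling genes were read from a list of 50, of which 48 were on the array and 41 were tested. In OF against YF 23 were higher and 18 lower (median 0.03 against 0.01), in Contemporary cows against YF 26 and 15 (0.06 against -0.02), and in Contemporary cows against OF 23 and 18 (0.02 against -0.04). None was called by limma. An unadjusted p of 0.05 was reached by 3 genes in OF against YF, 7.32% of the 41 against 2.42% of all transcripts, by none in Contemporary cows against YF, and by 3 in Contemporary cows against OF, 7.32% against 4.57%. In both cases they were STEAP1, of a family of metal reductases, STEAP4, a ferric reductase, and HEPHL1, a copper-containing ferroxidase. The 2 contrasts share the 4 OF arrays and are not separate evidence.

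STEAP1 was at 1.56, 1.39, 1.05 and 0.96 in YF 1069, 1070, 1072 and 1127, at 0.43, -0.01, 0.68 and -2.20 in OF 0233, 0234, 0245 and 2258, and at 1.23, 1.91 and 1.72 in Contemporary 1068, 1128 and 1129. All OF were below all others, and 2258 was far below the other OF, as for SCARA5. The OF minus YF difference was -1.52 (limma standard error 0.58, unadjusted p = 0.0293, adjusted p = 0.999), or -0.88 without 2258. The Contemporary minus OF difference was 1.90 (standard error 0.67, unadjusted p = 0.0236, adjusted p = 0.912), or 1.25 without 2258.

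STEAP4 was higher in each OF, at -4.69, -4.93, -5.39 and -4.14 in 0233, 0234, 0245 and 2258, than in any YF (-5.99 to -5.54) or Contemporary cow (-6.45 to -5.42), though cow 1111, at -5.28, was above OF 0245. The OF minus YF difference was 0.96 (standard error 0.26, unadjusted p = 0.00574, adjusted p = 0.999), and 0.43 with normexp. The Contemporary minus OF difference was -1.0 (standard error 0.37, adjusted p = 0.912), -0.66 without Contemporary 1128 and -0.46 with normexp. HEPHL1 was also higher in each OF, at -2.55 and -2.86 in 0233 and 0234 and at -4.70 and -4.30 in 0245 and 2258, than in any YF (-5.25 to -4.92) or Contemporary cow (-5.11 to -4.83). It differed by 1.48 between OF and YF (standard error 0.46, unadjusted p = 0.0123, adjusted p = 0.999) and by -1.39 between Contemporary cows and OF (standard error 0.54, adjusted p = 0.912). These values became 0.52 and -0.45 when the brightest HEPHL1 probe alone was read, and 0.61 and -0.61 with normexp.

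**Figure D5:**
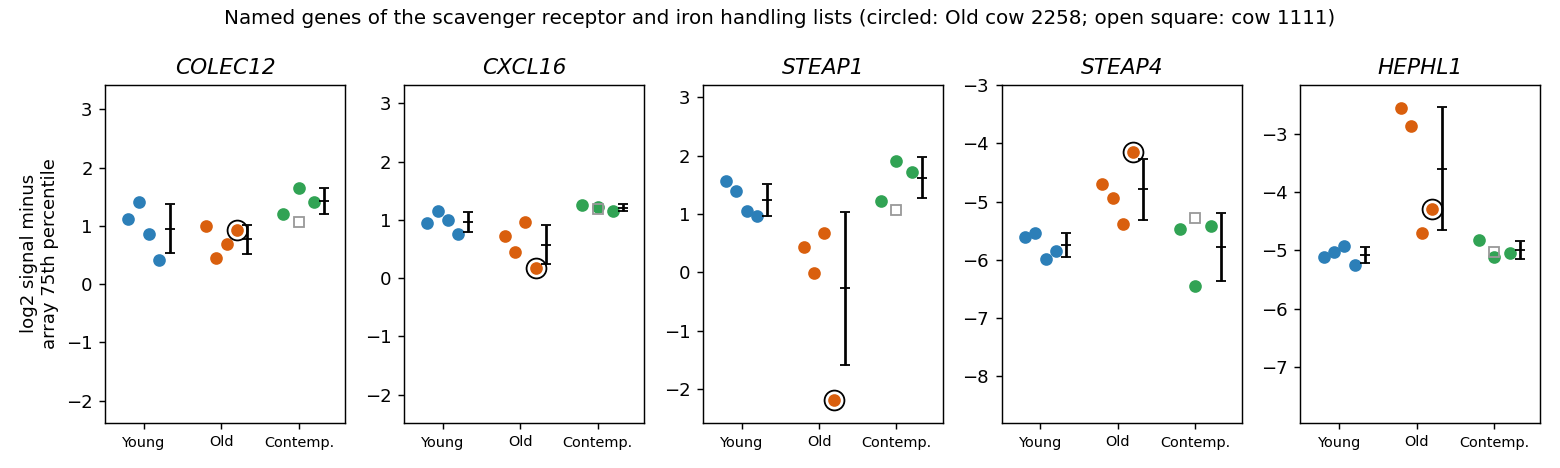
Level of the 5 named genes of the scavenger receptor and iron handling lists in each animal, as log2 signal minus the 75th percentile of the array, by group, with bars for the mean and SD. STEAP1 is lowest in OF 2258 (-2.20, circled), and HEPHL1 is highest in OF 0233 and 0234 (-2.55 and -2.86).

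The transcripts whose levels ran most like SCARA5 over the 12 arrays were ranked by Pearson correlation among 14212 other genes, as a description. The first 6 were COL4A3, a chain of basement membrane collagen (r = 0.97, Spearman rho = 0.71), PPAP2B, a lipid phosphatase (0.97, rho 0.97), FANCD2, of DNA crosslink repair (0.96, rho 0.83), PLEKHG4 (0.96, rho 0.85), KCNB2, a potassium channel subunit (0.96, rho 0.90), and MEDAG (0.96, rho 0.76). The points share the arrays and their scaling, and the likeness rests largely on 2258. COL4A3 was at -6.98 in 2258 and between -2.87 and -1.22 in the other animals, and PPAP2B was at 4.17 in 2258 and between 4.99 and 5.62 in the others. Over the 11 arrays without 2258, r fell to between 0.77 and 0.88 for these 6, and none of the 6 was among the first 6. PPAP2B had the highest r of the 6 there, 0.88, level with FANCD2, and a rho of 0.96. Of the other 9 scavenger receptor and iron genes, SCARB2 had the highest r with SCARA5 over the 12 arrays, 0.62, and 0.39 without 2258. Over the 11 arrays SLC40A1 (0.68), STAB1 (0.65) and SCARB1 (0.60) were higher, against -0.06, -0.24 and 0.31 over the 12.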

How the data were processed

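The authors deposited Agilent Feature Extraction output (version 10.7.3.1) of 1-colour arrays, with probes annotated on UMD3.1. The processed signal is a background-corrected intensity, not normalized between arrays. It was turned here into log2 values minus the 75th percentile of each array over non-control spots. From 61399 probes, 66 flagged as outliers were left out, and the rest were averaged per transcript. A gene is given by its transcript with the highest mean. A transcript was tested if a probe of it cleared the background flag in all animals of either group, leaving 19755 to 19993 for limma (version 3.58.1, R 4.3.3), two-sided, with Benjamini-Hochberg adjustment over all of them. Each fit held the groups compared only. The scripts were first tested on simulated data with known changes. There, 200 transcripts were changed, and most calls of FCROS, and few of those of limma, fell on transcripts left unchanged. FCROS calls transcripts at the ends of its own ranking, so with so few changed this outcome was largely set in advance. How many transcripts truly differ in the real data is not known, so the simulated share is not that of the FCROS calls given. FCROS gives no error rate over all transcripts.

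The authors' method, FCROS, ranks pairwise ratios (trim 0.25, f-value beyond 0.025 or 0.975, fold of 1.5). It was written anew here from its published description and run on the scaled transcript values, so its calls are not those of the paper. FCROS was an alternative, with normexp (offset 50), quantile normalization, median centring, the brightest probe, no filter, slide as a block, 1 fit of the 3 groups, cow 1111 included and each animal left out. Within-slide values were added after the data were seen. Precision is limited by 3 or 4 animals per group. The genes and lists were chosen with earlier results of these data known. From the lists the text names the 3 genes with the largest difference and separate groups per contrast. Marker lists covered macrophage, endothelium, stroma, epithelium, smooth muscle, erythrocyte and uterine gland products.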

Additional observations from a re-analysis of the deposited data

How the results depend on the processing

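The log2 differences of the 10 genes and of the named list genes were recomputed under each alternative, 637 values in all. Of these, 11 changed sign among genes and contrasts with a test. That count leaves out the values without a test. Among them the sign turned between OF and YF for SCARB1, SCARB2, TFRC, SLC40A1 and FTH1, and in Contemporary cows against YF for SCARA5. With normexp the Contemporary minus OF difference was -0.14 for SCARA3 and -0.00291 for STAB1, and STAB1 was at -0.00475 with slide as a block and within slide 2. With each animal left out in turn, this difference ran from -0.0443 to 0.23 for SCARA3 and from -0.18 to 0.29 for STAB1, and Contemporary minus YF ran from -0.0227 to 0.22 for SLC40A1. The cause was not tested. No member or named gene reached an adjusted p of 0.05 in limma under any of these settings, the lowest being 0.484. The difference of SCARA5 between OF and YF stayed below 0 in all of them, from -1.06 to -0.36 with an animal left out.

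Over all transcripts, limma called 0 in each contrast. Contemporary against YF gave 1 call with quantile normalization, 2 in 1 fit of the 3 groups, 4 with cow 1111, and 0 to 1 with an animal left out. Contemporary against OF gave 2 with cow 1111 and 0 to 1 with an animal left out. FCROS as rerun here, in place of limma, called 1300 transcripts in OF against YF, 757 higher and 543 lower in OF. It called 1113 in Contemporary against YF and 1422 in Contemporary against OF. The paper's own FCROS run reported fewer genes between OF and YF, with more lower than higher in OF. Among the genes here the rerun called 1 of the 9 in Contemporary against YF, 2, 1 and 1 of the scavenger receptor list and 3, 2 and 5 of the iron handling list in the same order. Of the 6 genes most like SCARA5, 3 remained among the first 6 after quantile normalization and 0 without OF 2258.

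No paired analysis was possible because the groups share no animal numbers. The dim genes CD36, MSR1, TFRC, STEAP4 and HEPHL1 gave smaller differences with normexp than without, as -0.26 against -0.60 for TFRC in Contemporary against OF. The SCARA5 difference between Contemporary cows and YF ran from -0.13 to 0.11 with an animal left out.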
